A study of Mus musculus with 6 samples.

Results

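The alpha, beta and gamma subunit genes of the GABA-A receptor were described in RNA of the left mouse cochlea after sound trauma, with and without mesenchymal stromal cells (MSC). They are the genes whose symbol is Gabra, Gabrb, Gabrg or Gabrd in either of the lists of changed genes that the authors deposited (down-regulated or up-regulated), and the values for them were taken from the table of all genes. This gave 10 of 41096 genes, all from the down-regulated list, and 7 of them are described: Gabra2, Gabra3, Gabra4, Gabra6, Gabrb1, Gabrb2 and Gabrg1. Counts, medians and shares refer to these 7 genes. The members were thus selected on lower values after MSC in this same comparison of the same libraries. Their group difference is therefore a description: counts of calls stand only beside those of all genes, and the limit above which the authors listed a gene was not examined.

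All mice were female, 4 weeks old and of the strain labelled C56Bl/6, which the methods name C57BL/6, and all were exposed to a 16 kHz sound for 4 h. In the sound trauma group (specimens 6, 8 and 10) the methods describe an injection of artificial perilymph 48 h later, whereas the labels name noise only. In the MSC treated group (specimens 13, 18 and 20) 1 µl of MSC grown from human Wharton's jelly, the soft tissue of the umbilical cord, went into the posterior semicircular canal. RNA was taken 2 days after treatment by the labels and 72 h after it by the methods, and n was 3 libraries in each group, fewer than the animals per group in the methods. Every library is a bulk sample in which fewer cells of a type and less RNA per cell cannot be told apart. The labels number the specimens without saying which animals they came from, so errors and p-values cover the spread between these samples only.

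GABA-A receptors are chloride channels opened by the inhibitory transmitter GABA. Each is a ring of subunits built from alpha, beta and gamma (or delta) genes, with GABA bound between alpha and beta and benzodiazepines between alpha and gamma. The alpha subunit sets much of the pharmacology and location of the receptor, and alpha6 is made almost exclusively by granule cells of the cerebellum and of the cochlear nucleus. In the cochlea, GABA is a transmitter of part of the efferent innervation, and spiral ganglion neurons carry GABA-A receptors.

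Reads on genes numbered between 9170390 and 11030863 per library, and values are scaled counts, in which each library is multiplied by 1 factor so that a read is worth 0.893 to 1.16. A count of 3 reads or fewer was treated as the floor of detection. Sound trauma specimens 6 and 8 stood apart from the other 4 libraries in granule cell markers. Summed over 15 cerebellar granule cell markers with a name in the authors' lists (Gabra6 left out), and thus also chosen on this contrast, the scaled count was 7029 in specimen 6 and 34562 in specimen 8, and 3357 in specimen 10. After MSC (specimens 13, 18 and 20, in this order throughout) the same sum was 3456, 4780 and 3483. Fold changes of the members and medians of the pathway lists are therefore given with and without specimens 6 and 8. Cochlear tissue was measured in every library: the 6 named markers of cochlear epithelium and hair cells summed to between 1939 (specimen 6) and 4856 (specimen 10).

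Most of these genes lie in clusters. In the RefSeq order of protein-coding genes on mouse assembly GRCm38.p6, Gabra6 and Gabrb2 are direct neighbours on chromosome 11. Gabrg1, Gabra2, Gabra4 and Gabrb1 follow each other on chromosome 5, with only Cox7b2 between Gabra2 and Gabra4. Gabra3 is on the X chromosome. RefSeq promoter windows were at hand for all 7 genes, in 11 windows of 250 bases before to 50 bases after a transcript start. The 250 bases before the start of Gabra6 (GRCm38.p6, chr11:42321073-42321322, minus strand) and before the first start of its neighbour Gabrb2 (chr11:42420190-42420439, plus strand) are shown. Gabra6 had the widest range of the members, and Gabrb2 is the next gene. Gabrb2 had the same order of libraries as Gabra6 over a narrower range, but so did Gabrb1 and Gabrg1 on chromosome 5. Among the low libraries the order of Gabra6 rests on 1 to 6 reads. Both sequences read 5′ to 3′ towards the start, and capitals mark matches to TTGGC on either strand and to TATAAA.
Gabra6: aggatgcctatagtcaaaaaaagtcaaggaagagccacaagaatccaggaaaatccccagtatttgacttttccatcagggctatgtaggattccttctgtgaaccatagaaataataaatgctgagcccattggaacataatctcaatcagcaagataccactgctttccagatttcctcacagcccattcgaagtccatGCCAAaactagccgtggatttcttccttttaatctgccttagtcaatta
Gabrb2: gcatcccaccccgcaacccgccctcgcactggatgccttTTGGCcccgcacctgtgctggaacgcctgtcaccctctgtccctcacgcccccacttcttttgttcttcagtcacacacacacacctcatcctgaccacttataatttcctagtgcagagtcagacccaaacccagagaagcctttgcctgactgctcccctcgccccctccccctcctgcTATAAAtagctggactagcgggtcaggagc

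The first of these motifs, TTGGC, is the half-site of nuclear factor I, a transcription factor family known to act on the Gabra6 promoter in granule cells. It matched once in the Gabra6 window, on the opposite strand, from position -49 counted from the start. In the Gabrb2 window it matched from -211, and the TATA box letters matched from -30. The half-site also matched in windows of Gabrg1, Gabra2, Gabra4 and Gabrb1, so it was not particular to Gabra6 and Gabrb2. In the Gabra3 windows only the TATA box letters matched. Among all 32851 promoter windows, 46.7% held the half-site and 13.6% held the TATA box letters on either strand. The cyclic AMP response element, TGACGTCA, was in 1.79% of all windows and the palindromic nuclear factor I motif, which contains the half-site, in 0.0365%. Neither was in a window of these genes, which says only that those letters are not there.

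Gabra6, the granule cell subunit (MGP_C57BL6NJ_G0018562), was measured at 207 in specimen 6, 1431 in specimen 8 and 0.893 in specimen 10, all as scaled counts. After MSC it was at 2.08, 6.13 and 3.88. Specimens 6 and 8 were thus high, while specimen 10 lay below every MSC treated library, and the groups overlapped. The reads behind these values were 179, 1497 and 1, and 2, 6 and 4, so that specimens 10 and 13 were at the floor. The sound trauma mean was 547 ± 773 (SD, n = 3) and the MSC treated mean 4.03 ± 2.03 (SD, n = 3), and in sound trauma the SD was larger than the mean. Gabra6 was the only member that did not pass the filter on low counts. Fitted without that filter, it was lower after MSC by a log2 fold change of -4.12 (SE 2.14), and without specimens 6 and 8 the value was 1.33. On the recovered reads it was -7.04 in edgeR and -7.08 in DESeq2, so the size of this value depends on the tool.

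Gabra2, a synaptic alpha subunit of forebrain and brain stem (MGP_C57BL6NJ_G0030037), was measured at 56.8, 136 and 5.36 in sound trauma and at 9.35, 21.4 and 27.2 after MSC. Gabra3, an alpha subunit of brain stem and developing neurons (MGP_C57BL6NJ_G0036294), was measured at 85.8, 142 and 10.7 and at 18.7, 28.6 and 31.1. These 2 genes shared a shallow profile, in which specimens 6 and 8 were high by less than for Gabra6. For both genes specimen 10 was the lowest library and specimen 20 the highest of the MSC treated ones. Gabra4, an alpha subunit found largely outside synapses (MGP_C57BL6NJ_G0030039), was measured at 33.6, 209 and 5.36 and at 4.16, 15.3 and 2.91. It was the only member whose lowest library was not specimen 10 but MSC treated specimen 20, where it was at the floor with 3 reads.

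Among the beta subunits, which help form the GABA site and carry the receptor to the membrane, Gabrb1 (MGP_C57BL6NJ_G0030040) was at scaled counts of 111, 377 and 9.83 in sound trauma and at 12.5, 55.1 and 35.9 after MSC. Gabrb2 (MGP_C57BL6NJ_G0018563) was at 56.8, 374 and 7.15 and at 16.6, 40.9 and 29.1. For both genes specimen 8 was again the highest, specimen 10 the lowest and specimen 18 the highest after MSC. The group means of Gabrb1 were 166 ± 189 and 34.5 ± 21.4, and those of Gabrb2 146 ± 199 and 28.9 ± 12.1 (SD, n = 3 each), so that in sound trauma the SD exceeded the mean for both.

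The gamma subunits tie receptors to the synapse and form the benzodiazepine site. Gabrg1 (MGP_C57BL6NJ_G0030036) had 20.9, 78.4 and 1.79 in sound trauma and then 2.08, 12.3 and 8.74 after MSC, with specimens 10 and 13 at the floor. It kept the order of libraries seen for the beta subunits, but specimens 10 and 13 had 2 reads each, so their order came from the scaling alone.

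**Figure D1:**
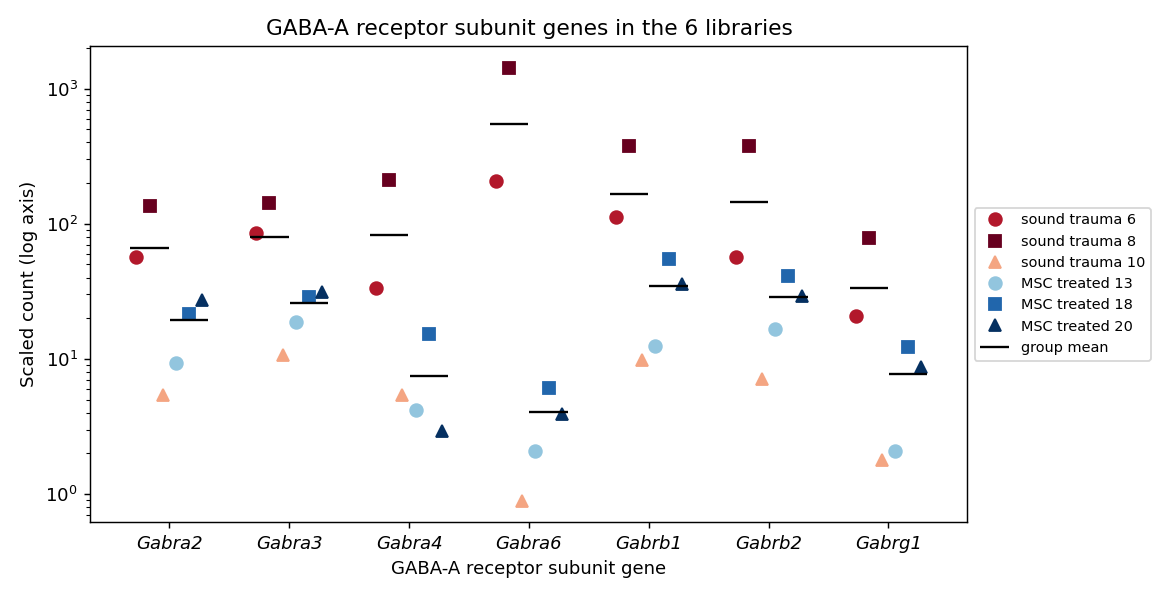
Scaled counts (log axis) of 7 subunit genes in the 6 libraries, 1 point per library, coloured by library. Sound trauma specimens 8 and 6 are the highest points of every gene, and specimen 10 lies below every MSC treated library for 6 of the 7. For Gabra6 and Gabrg1 specimens 10 and 13 are both at 3 reads or fewer.

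Across the 7 genes, specimen 8 was the highest library in 7 and specimen 6 the second highest in 7, and in every case specimen 6 also lay above all 3 MSC treated libraries. Over all genes that passed the filter, 28.2% were highest in specimen 8, and over the whole down-regulated list 69.0%. Specimen 10 went the other way: it was below all 3 MSC treated libraries in 6 genes and below their mean in 7. For Gabra6 and Gabrg1, which are among these 6, specimens 10 and 13 were both at the floor of 3 reads or fewer. Within the MSC treated group, specimen 13 was lowest in 6 genes, and specimens 18 and 20 were highest in 5 and 2. All reads on the 7 genes together came to 494, 2874 and 46 in sound trauma and to 63, 176 and 143 after MSC. As a share of all reads on genes, this is 0.0287% in specimen 8 and 0.000417% in specimen 10.

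The balance of the 4 alpha genes was compared within each library on levels per kilobase, because reads scale with the length of a gene. The lengths are those implied by the authors' mean FPKM, and over the 7 genes they run from 2489 bases for Gabra6 to 13835 bases for Gabrb1. Gabra6 was 70.3% and 86.6% of the summed level per kilobase of Gabra2, Gabra3, Gabra4 and Gabra6 in specimens 6 and 8, and 7.60% in specimen 10. After MSC it was 10.99%, 16.2% and 11.4%. Specimen 10 was thus nearer to the treated libraries in its Gabra6 share than to the other 2 libraries of its own group. The share depends on the length used. On coding lengths, which are alike for these genes (1353 to 1734 bases), Gabra6 was 57.04% of the level in specimen 6 and 77.2% in specimen 8, against 9.58% in specimen 18 and 6.49% in specimen 20.

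Counted in reads alone, with no length, the same contrast between libraries stood beyond counting error. Gabra6 took 179 of 331 reads on the 4 alpha genes in specimen 6, or 54.1% (95% Wilson interval 48.7 to 59.4). It took 1497 of 2007 in specimen 8, or 74.6% (72.6 to 76.4). In specimen 10 it took 1 of 25, or 4.0% (0.710 to 19.5), a wide interval because few reads were there. After MSC the share was 6.06% (1.68 to 19.6), 8.57% (3.99 to 17.5) and 5.97% (2.35 to 14.4). The intervals of specimens 6 and 8 lay above those of the other 4 libraries, and these 4 overlapped each other. Intervals cover counting error only, and a share within 1 library is not a replicate of a condition.

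**Figure D2:**
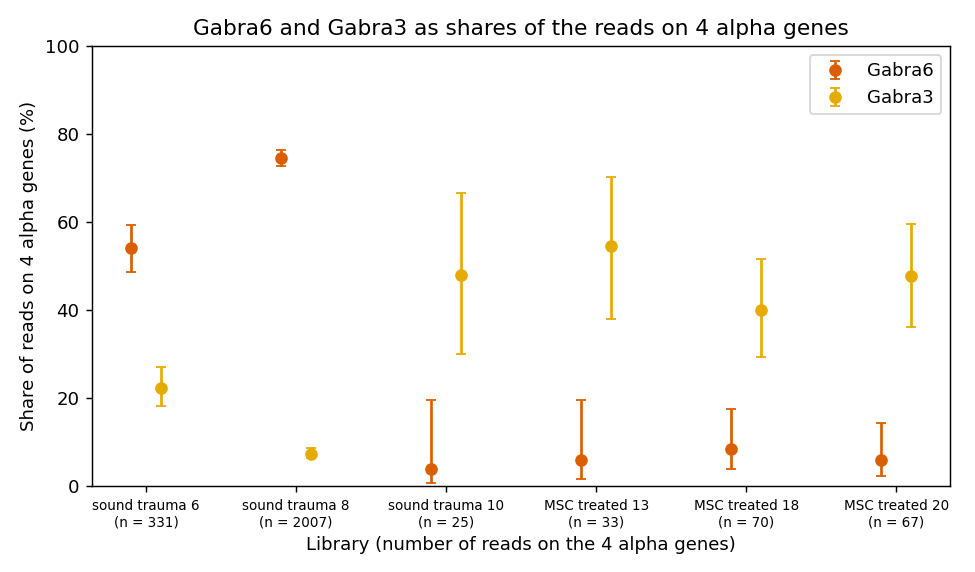
Share of the reads on 4 alpha genes (percent) taken by Gabra6 and by Gabra3 in each library, with 95% Wilson intervals as bars and the number of reads under each library. Gabra6 is at 54.1% and 74.6% in sound trauma specimens 6 and 8 and between 4.0% and 8.57% in the other 4.

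Against Gabra4 alone, the member nearest to it in profile, Gabra6 was 86.1% of their joint reads in specimen 6 (80.7 to 90.1) and 87.2% in specimen 8 (85.6 to 88.7). Both libraries thus held the 2 genes in like proportion, although each gene was several times higher in specimen 8. In specimen 10 the share was 14.3% (2.57 to 51.3), from 7 reads. After MSC it was 33.3% (9.68 to 70.0), 28.6% (13.8 to 49.96) and 57.1% (25.05 to 84.2), so that the interval of specimen 20, from 7 reads, reached that of specimen 6. This pair was chosen after the values were seen.

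The shares add up to the whole, so a lower share of Gabra6 means higher shares of the other alpha genes by arithmetic. In scaled counts Gabra2, Gabra3 and Gabra4 were themselves lower in specimen 10 and after MSC than in specimens 6 and 8. Gabra3 was 18.7%, 5.55% and 58.7% of the level per kilobase of the 4 genes in sound trauma and 63.7%, 48.6% and 58.8% after MSC, and led them in specimen 10 and in all 3 MSC treated libraries. On coding lengths Gabra2 led in specimen 20, at 45.6% against 44.1% for Gabra3. Gabra2 was 6.33%, 2.70% and 15.0% in sound trauma and 16.3%, 18.6% and 26.3% after MSC. Gabra4 was 4.66%, 5.18% and 18.7% and then 8.996%, 16.5% and 3.50%. Specimen 10 has only 25 reads on these genes, of which Gabra3 took 12 (interval 30.03% to 66.5%) and Gabra2 and Gabra4 6 each (11.5% to 43.4%), so in reads their intervals overlapped there. In specimens 13, 18 and 20 the intervals of Gabra3 and Gabra2 in reads overlapped too. These intervals are for reads, and none was computed for levels per kilobase.

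**Figure D3:**
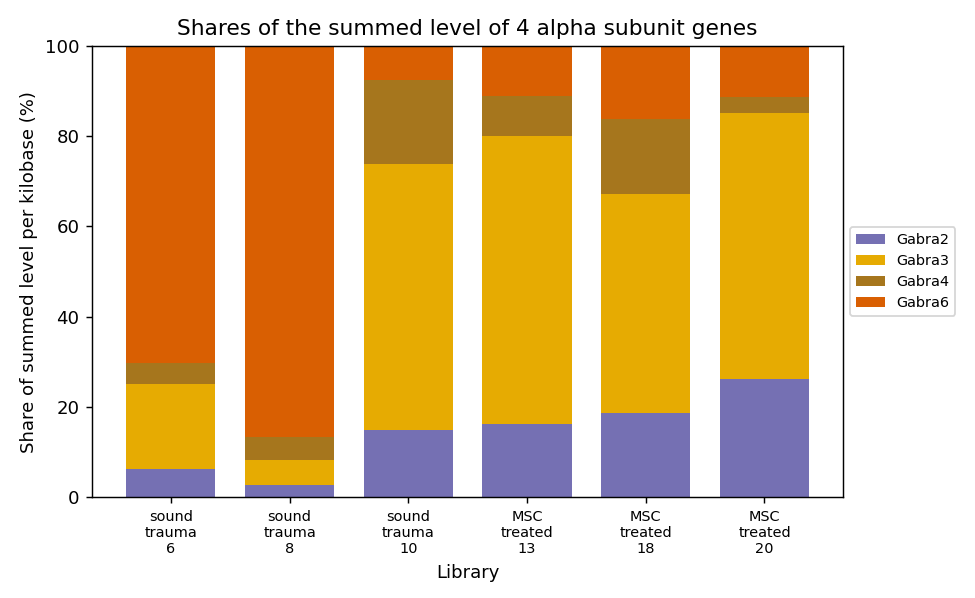
Gabra2, Gabra3, Gabra4 and Gabra6 as percent of their summed level per kilobase in each library, as stacked bars. Gabra6 fills 70.3% and 86.6% of the bar in sound trauma specimens 6 and 8 and at most 16.2% in the other 4.

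Of the 2 beta genes described, Gabrb2 had the higher level per kilobase in every library, with 52.6%, 68.3% and 61.3% of their sum in sound trauma and 74.4%, 61.7% and 63.8% after MSC. This order rests on the length used: on coding lengths Gabrb1 was the higher in 5 of 6 libraries, with 67.9%, 52.1% and 59.8% in sound trauma and 44.8%, 59.3% and 57.1% after MSC. In reads, Gabrb2 took 49.8% (46.3 to 53.3) of the reads on both genes in specimen 8 and 33.8% (26.6 to 41.8) in specimen 6, so these libraries differed in this balance beyond counting error. The intervals of the other 4 libraries, from 42.1% (23.1 to 63.7) in specimen 10 to 57.1% (39.1 to 73.5) in specimen 13, overlapped each other.

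Ordered by mean level per kilobase, the MSC treated group ran from Gabra3 at 6.76 ± 1.69 and Gabrb2 at 4.54 ± 1.91 to Gabra2 at 2.56 ± 1.20 and Gabrb1 at 2.49 ± 1.55 scaled counts per kilobase (SD, n = 3 each). Gabra6 was the fifth at 1.62 ± 0.815, before Gabra4 at 1.23 ± 1.12 and Gabrg1 at 0.981 ± 0.660. Of the 6 steps between neighbours in this order, 4 were smaller than the larger of the SDs, the exceptions being those from Gabra3 to Gabrb2 and from Gabrb2 to Gabra2. In the sound trauma group Gabra6 came first with a mean level of 220 ± 311, followed by Gabrb2 at 22.9 ± 31.3 and Gabra3 at 20.6 ± 17.1, and all 6 steps were smaller than the larger SD. By library, Gabra6 had the highest level per kilobase of the 7 genes in specimens 6 and 8 and Gabra3 in the other 4. On coding lengths Gabra6 still led in specimens 6 and 8 and Gabra3 in specimen 13, but Gabrb1 led in specimens 10, 18 and 20.

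Specimens 6 and 8 were not raised by the same amount in every subunit. The ratio of specimen 8 to specimen 6 in scaled counts was 6.90 for Gabra6 (95% interval 5.90 to 8.10), 6.58 for Gabrb2 (4.88 to 9.05) and 6.23 for Gabra4 (4.22 to 9.52). Gabrg1 at 3.76 (2.24 to 6.65) and Gabrb1 at 3.39 (2.70 to 4.28) were lower. The lowest ratios belonged to Gabra2 at 2.39 (1.72 to 3.38) and Gabra3 at 1.66 (1.25 to 2.23). The interval of Gabra6 overlapped those of Gabrb2, Gabra4 and Gabrg1 and lay above those of Gabrb1, Gabra2 and Gabra3. The interval of Gabrg1 also overlapped those of Gabrb2, Gabra4, Gabrb1 and Gabra2, and that of Gabrb1 overlapped those of Gabra4 and Gabra2. The ratios thus did not fall into separate sets. The median over the 7 genes was 3.76, against 1.09 over all genes that passed the filter, of which 4.22% had a ratio of at least 3.

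**Figure D4:**
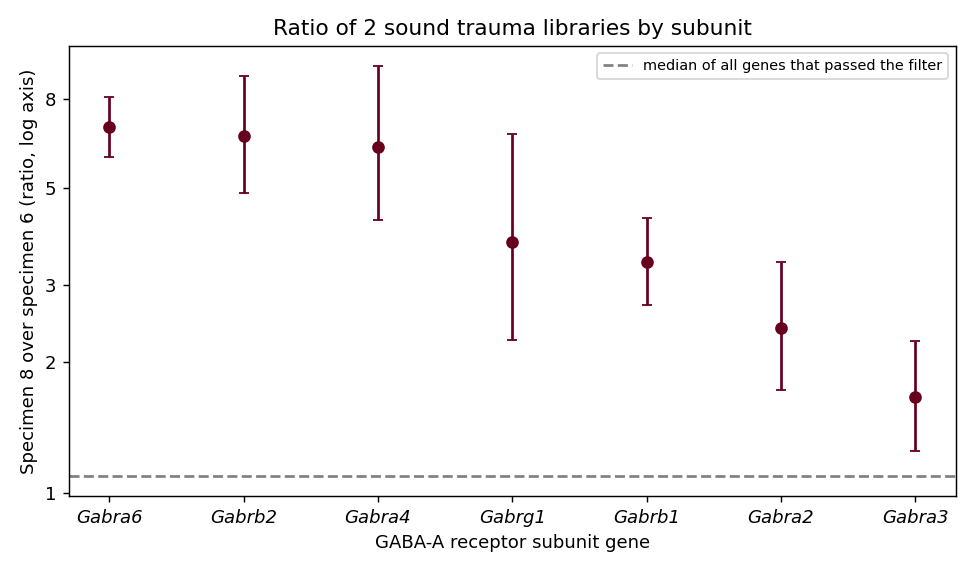
Ratio of sound trauma specimen 8 to specimen 6 (log axis) for each subunit gene, in order of size, with 95% intervals from the reads and a dashed line at the median of all genes that passed the filter. The points run from 6.90 for Gabra6 down to 1.66 for Gabra3, all above the line at 1.09.

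Profiles over the 6 libraries were compared by the root mean square difference of log2(scaled count + 1), each gene centred on its own mean. The closest pair was Gabrb1 and Gabrg1, the ends of the chromosome 5 cluster, at 0.153. Gabra2 and Gabra3 followed at 0.324, from different chromosomes. Gabra6 stood farthest from every other member, from 1.77 to Gabra4 to 2.35 to Gabra3, and its neighbour Gabrb2 was at 2.05. The median difference was 0.619 over the 6 pairs of the chromosome 5 cluster and 0.766 over the 14 pairs of genes from different chromosomes. The latter was 0.602 over the 9 pairs without Gabra6, so by this median the cluster genes were no closer to each other. Library depth and the high values of specimens 6 and 8 are common to all these profiles.

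The comparison of MSC treated with sound trauma asks which cochlear genes change with the cells. All 7 subunit genes were fitted lower after MSC, the direction of the list from which they were taken. The log2 fold changes were between -0.98 (SE 1.12) for Gabra2 and -4.12 (SE 2.14) for Gabra6. Gabra4 was at -2.38 (SE 1.28), Gabrb1 at -1.35 (SE 1.29), Gabrg1 at -1.20 (SE 1.26), Gabrb2 at -0.997 (SE 1.304) and Gabra3 at -0.99 (SE 0.91). The SE exceeded the size of the change for Gabra2, Gabrb2 and Gabrg1. The median over the 6 genes that passed the filter was -1.10, and 0.0014 over all 15970 genes tested. On the recovered reads the members' median was -2.20 in edgeR and -2.21 in DESeq2.

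No member was called: limma-trend gave 0 of 6 at an adjusted p under 0.05, where 0% of all genes tested were called. At an unadjusted p under 0.05 and in the lower direction, limma-trend gave 0 of 6 members and 0.67% of all genes, and limma-voom 0 of 6 and 0.614%. The edgeR quasi-likelihood test gave 1 of 6 (Gabra4) and 1.67% of all genes. DESeq2 gave 4 of 6 (Gabra3, Gabra4, Gabrb1 and Gabrb2) and 3.44% of all genes, with 0% of all genes at its adjusted threshold. The groups did not overlap downwards for 0 of the 7 members and for 2.92% of all genes. Nothing is read from these counts, because the lists came from this contrast.

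Without specimens 6 and 8, which leaves specimen 10 as the only sound trauma library, all 7 members were higher after MSC. The log2 fold changes were then 1.79 for Gabrb2 and 1.56 for Gabra2. They were 1.49 for Gabrb1, 1.40 for Gabrg1, 1.33 for Gabra6, 1.18 for Gabra3 and 0.12 for Gabra4, with a median of 1.40. These values have no replicate in one group. Specimens 8 and 6 were the highest libraries of every member, and specimen 10 lay below the MSC treated mean for all 7. Leaving them out after the values were seen thus largely fixed the direction, and nothing is read from it. Without specimen 8 alone the median of the 6 genes was -0.14, without specimen 6 alone -0.996 and without specimen 10 -2.45, so the size of the median depended on specimens 8 and 10. Gabrb2 was at 0.37 without specimen 8, so its direction rested on that library. Gabra6 was at -2.06 without specimen 8 and at -6.85 without specimen 10.

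Genes of the rest of the GABA pathway were counted where the authors' lists give a symbol, so these too were chosen for a change in this contrast, and 0 of the genes in these pathway lists had an unadjusted p under 0.05 in limma-trend, beside 107 lower and 269 higher of all 15970 genes. Of 8 genes of GABA synthesis, packing, uptake and breakdown, 7 had a symbol, 6 of them in the down-regulated list and highest in specimen 8. Abat, the transaminase that breaks GABA down, was at 978, 2034 and 367 in sound trauma and 458, 787 and 445 after MSC. Slc6a11, a glial GABA transporter, had 331, 1066 and 43.8 and then 55.1, 171 and 59.2. Gad1, an enzyme that makes GABA, had 161, 1330 and 32.2 and then 27.0, 67.4 and 36.9. The median log2 fold change of the 7 genes was -1.59, and 0.56 without specimens 6 and 8.

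Both named GABA-B receptor genes were highest in specimen 8 (median log2 fold change -0.58, or 0.36 without specimens 6 and 8): Gabbr1 had 1504, 4529 and 1044 in sound trauma and 1115, 1395 and 1571 after MSC, and Gabbr2 had 525, 2516 and 407 and then 430, 598 and 551. Of 20 scaffold and trafficking genes, 8 had a symbol, 7 of them in the down-regulated list (median log2 fold change of the 8 genes -0.39, or 0.013 without specimens 6 and 8). The most abundant were the kinesin adaptors Trak2 (2399, 2848 and 3494, then 2914, 3314 and 3188) and Trak1 (2676, 1656 and 1713, then 2155, 1552 and 1607), and Nlgn2, the adhesion protein of inhibitory synapses (1231, 2340 and 1241, then 1180, 1311 and 1250). These 3 varied far less between libraries than the receptor subunits. Outside the alpha, beta, gamma and delta classes, the GABA-A subunit with a symbol was Gabrp, an epithelial subunit, in the up-regulated list. It had 15.1, 76.5 and 33.1 in sound trauma and 167, 53.1 and 34.0 after MSC, with overlapping groups and a high value in specimen 13.

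For the chloride gradient that sets the direction of GABA currents, 3 of 7 genes had a symbol, 2 of them in the down-regulated list (median log2 fold change of the 3 genes -0.61, or 0.26 without specimens 6 and 8). Stk39, a kinase that acts on chloride transporters, had 683, 719 and 859 and then 762, 1039 and 928. Wnk3, another kinase of this system, had 53.3, 80.3 and 25.9 and then 30.1, 29.6 and 34.0. Slc12a5, the neuronal chloride extruder, had 698, 3100 and 50.9 in sound trauma and 67.5, 371 and 67.9 after MSC. It followed the receptor subunits in being high in specimens 8 and 6, and Stk39 was lowest in specimen 6. Of 7 genes of the glycine receptors and transporters, the other inhibitory system, 4 had a symbol, all in the down-regulated list, and 3 were highest in specimen 6. Of these 4, Glra2 did not pass the filter, and the median log2 fold change of the other 3 was -1.40, or 1.89 without specimens 6 and 8. Slc6a9, the glial glycine transporter, had 825, 1682 and 1095 and then 641, 1169 and 842. Slc6a5, the neuronal glycine transporter, had 234, 152 and 0.893 and then 3.12, 82.7 and 0, and Glra1, the adult glycine receptor alpha subunit, had 45.2, 22.9 and 0 and then 2.08, 18.4 and 0. These 2 genes were thus raised in specimen 18 as well as in specimens 6 and 8, unlike Gabra6.

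Markers of other cell types were counted only where the authors' lists give a symbol, so these too were chosen for a change in this contrast. All 15 named granule cell markers were in the down-regulated list and highest in specimen 8, with a median ratio of specimen 8 to specimen 6 of 5.48, and 2 of them reached the floor in some library. The transcription factor Barhl2 was at 0 in specimens 10 and 18. Purkinje cell markers (9 of 11 named) summed to 2885, 17817 and 2584 in sound trauma and to 2509, 3044 and 2506 after MSC, with a median ratio of 6.83. Markers of Bergmann glia and astrocytes (6 of 8 named) summed to 8646, 23380 and 3423 and to 2579, 6027 and 3106. Choroid plexus markers (6 of 8 named) summed to 8203, 5537 and 363 and then 330, 424 and 311. Ttr made up most of this sum in specimens 6 and 8 (7414 and 4927) but not in the other 4 libraries, and 4 of the 6 genes were highest in specimen 6 and 2 in specimen 8. At an unadjusted p under 0.05 limma-trend called 1 of 13 granule cell and 2 of 5 choroid plexus markers that passed the filter. Over all 15970 genes it called 107 lower and 269 higher. Nothing is read from these marker counts, because the markers were taken from lists of this contrast. The part of these cell types in the subunit values was not tested.

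The remaining marker lists were mixed. Central myelin markers (7 of 8 named) summed to 23622, 32870 and 10148 in sound trauma and to 9235, 23130 and 11872 after MSC, so that specimen 18 was also high. Forebrain excitatory neuron markers (4 of 7 named) summed to 3857, 6595 and 1518 and to 2055, 1929 and 1479. Slc17a7, which the granule cell list also holds, was 3706 of the sum in specimen 8, and Camk2a was highest in specimen 6, at 1983. Interneuron markers (8 of 10 named) summed to 28928, 5897 and 9710.5 and to 19619, 4418 and 3717, a sum made up mostly of Pvalb, which muscle also expresses. Of these 8 genes 6 were highest in specimen 8, and the median ratio of specimen 8 to specimen 6 was 4.01. The 2 of 10 named spiral ganglion neuron markers, Pvalb and Snap25, summed to 33008, 15436 and 12788 and to 22680, 8972 and 7648. Schwann cell markers (2 of 6 named, both in the up-regulated list) stayed between 696 in specimen 8 and 1203 in specimen 18. The 6 of 14 named markers of cochlear epithelium and hair cells were all in the up-regulated list and lowest in sum in specimens 6 and 8.

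**Figure D5:**
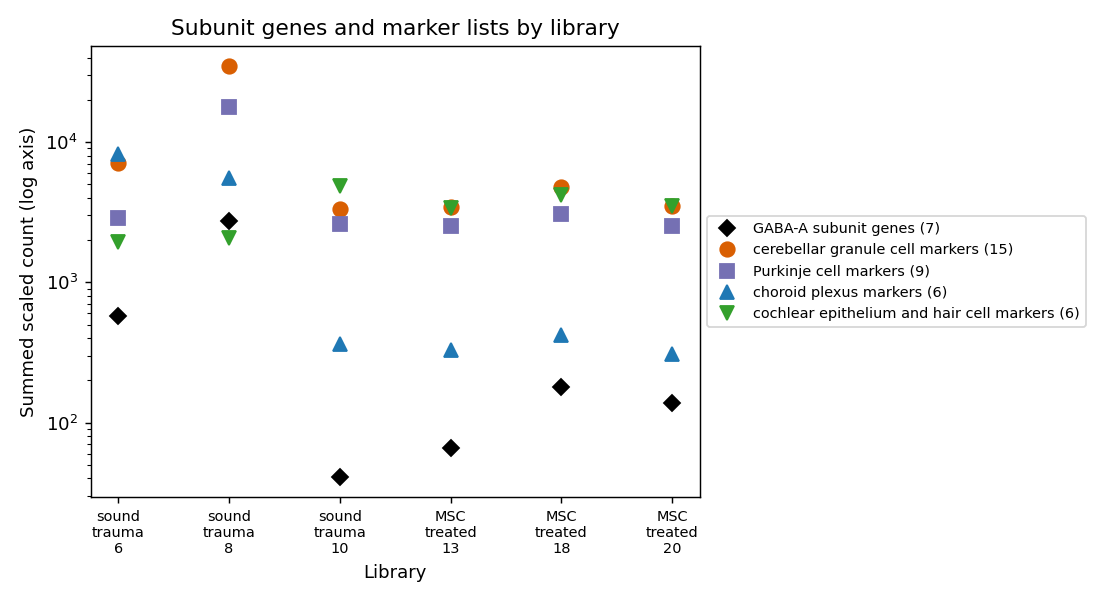
Summed scaled count (log axis) in each library of the 7 subunit genes and of the named markers of 4 cell types. The subunit genes, granule cell and Purkinje cell markers peak in sound trauma specimen 8, choroid plexus markers in specimen 6, and cochlear epithelium and hair cell markers are lowest in these 2 libraries.

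The profile most like that of Gabra6, among 3528 named genes that passed the filter, was that of Cbln3, a synaptic protein of cerebellar granule cells, at a root mean square difference of 0.398. Its scaled counts were 615, 5660 and 8.04 in sound trauma and 21.8, 29.6 and 23.3 after MSC. Neurod2, a neuronal transcription factor, was next at 0.778, with 154, 996 and 3.57 and then 3.12, 18.4 and 8.74. Grin2c, the NMDA receptor subunit of mature granule cells, was at 1.11, Slc32a1, the vesicular GABA transporter, at 1.20, and Gad2, a GABA synthesis enzyme, at 1.28. Ttr, the choroid plexus transport protein, was at 1.29, Rnf112 at 1.33, Cbln1 at 1.38 and Arhgef33 at 1.41. These 9 genes were nearer to Gabra6 than any other receptor subunit described, of which Gabra4 came closest at 1.77. Likeness was measured over 6 libraries that share their depth and the high specimens 6 and 8.

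The reads of Gabra6 and Cbln3 were set against each other in each library. Gabra6 was 25.2% (22.2 to 28.5) of their joint reads in specimen 6 and 20.2% (19.3 to 21.1) in specimen 8. In specimen 10 it was 10.0% (1.79 to 40.4), and after MSC 8.70% (2.42 to 26.8), 17.1% (8.10 to 32.7) and 14.3% (5.70 to 31.5). Only specimens 6 and 8 had intervals that did not overlap each other. Against Grin2c the share was 30.8% (27.2 to 34.7) and 30.2% (29.0 to 31.5) in specimens 6 and 8, 5.26% (0.935 to 24.6) in specimen 10, and between 3.92% (1.08 to 13.2) and 9.76% (3.86 to 22.5) after MSC. The intervals of these 4 libraries did not reach those of specimens 6 and 8. Cbln3 and Grin2c were compared with Gabra6 in reads after their profiles were seen.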

How the data were processed

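Libraries were made from the left cochlea after sound trauma alone (3 libraries) and after sound trauma with MSC (3 libraries). The authors aligned reads with the AIR software to the C57BL/6NJ genome and deposited a signal for 41096 genes, the read count times 1 factor per library; the counting tool and its use of strand are not given in the sources used here. Their lists hold mean FPKM, log2 fold change and FDR; only symbols and, for gene lengths, the deposited FPKM were used. Lengths from both groups agreed within 1% for 3865 of 3865 listed genes.

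All values (100%) were whole multiples of 1 read (tolerance 1e-06), and reads were recovered. Of 25369 genes with a read, 15970 passed filterByExpr. limma-trend (limma 3.58.1, R 4.3.3) was fitted to log2(scaled count + 1) with Benjamini-Hochberg adjustment, which can understate fold changes of low genes. edgeR 4.0.16 (quasi-likelihood), DESeq2 1.42.0 and limma-voom used the recovered reads, and scripts were tested on simulated data. Standard errors come from these fits, and 95% intervals of ratios and shares from the reads (scipy 1.17.1).

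Members, gene lists and tests were chosen with earlier results of these data known. The rule named every member, the 3 most abundant genes of each pathway list and the 10 genes most like Gabra6. Results for some genes, members among them, are not reported here. The mouse builds differ, so RefSeq (GRCm38.p6) gave gene order and promoter sequence only. Motifs were searched on both strands. Coding lengths are the longest coding sequences of GENCODE M21, used after the data were seen in place of RefSeq proteins; they change some orders of level. Older symbols were matched through RefSeq synonyms.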

Additional observations from a re-analysis of the deposited data

How the results depend on the processing

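The count of genes called was 0 with all 6 libraries and under every other scaling, pseudocount, filter and tool tried, and from 0 to 1 when single libraries were left out, the 1 call arising without sound trauma specimen 10. The median log2 fold change of the 6 subunit genes that passed the filter (-1.10) ran from -2.45 (without specimen 10) to -0.14 (without specimen 8) when single libraries were left out, and was 1.44 without specimens 6 and 8, which was tried after the data were seen and leaves 1 sound trauma library. It was -2.20 in edgeR and -2.21 in DESeq2, and between -1.11 and -0.96 under other scalings and pseudocounts, limma-voom and a robust fit. Other filters change which genes enter: it was -1.20 over 7 genes with no filter beyond 1 read and -1.17 over 2 genes with at least 10 reads in every library. All 7 genes stayed highest in specimen 8, and no gene had groups that did not overlap, under the other scalings. The Gabra6 share of the level of the 4 alpha genes was 54.1% by reads and 57.04% by coding length in specimen 6 (main 70.3%), 74.6% and 77.2% in specimen 8 (86.6%), and 8.57% by reads in specimen 18 (16.2%). The planned RefSeq coding lengths were not run. No paired analysis was possible because the groups share no replicate numbers. Few reads limit the shares in specimen 10, which held 25 on the 4 alpha genes although it was the deepest library.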
